A study of Rattus norvegicus with 2 samples.

Results

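Active absorption of calcium rests on a channel, a buffer, a pump and a receptor, and 4 genes that encode them, *Trpv6*, *S100g*, *Atp2b1* and *Vdr*, are described here. Their rows were taken by symbol from the 32883 genes of the count tables. Each symbol belonged to 1 gene (ENSRNOG00000014714, ENSRNOG00000004222, ENSRNOG00000004026 and ENSRNOG00000054420, in the same order). The levels came from single-cell libraries of 2 male Sprague Dawley rats, 1 library per untreated animal, taken as adults of 6 to 8 weeks after a fast overnight. The tissue was proximal jejunum. Epithelium was released with EDTA and made into single cells with dispase. All cells are of 1 condition, and the comparisons are between cell classes within the rats and between the rats.

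In the active route, calcium enters the enterocyte from the lumen through the apical channel TRPV6, is carried across the cytosol by the buffer calbindin-D9k, the product of *S100g*, and leaves at the basolateral side through the plasma membrane pump PMCA1, the product of *Atp2b1*. The vitamin D receptor, encoded by *Vdr*, binds the active hormone calcitriol and is known to raise transcription of the channel and the buffer, mainly in the duodenum, which precedes the jejunum. Calcium also passes between the cells, along a route set by claudins of the tight junction.

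Of the 12033 barcodes of rat 1 and the 8252 of rat 2, those with over 5000 unique molecular identifiers (UMIs, which count each captured transcript once), at most 40% mitochondrial UMIs and between 200 and 5800 genes were retained, which left 5988 and 2230 cells. The libraries stood apart. The retained cells had a median of 13.1% mitochondrial UMIs in rat 1 and 19.6% in rat 2, and 28 barcodes occurred in both libraries, 4 of them among the retained cells. Cells were placed in 8 epithelial classes by markers, 3 of them enterocytes. There were 4000 enterocyte-like cells in rat 1 and 1124 in rat 2, at a median of 12020 and 24434 UMIs. They held the enterocyte transcripts *Fabp1* (42398 and 22371 CPM, counts scaled to the same total in every class) and *Alpi* (560 and 2184 CPM). *Fabp1* was not confined to them, since tuft-like cells held it at 16382 and 30310 CPM. Within each rat the enterocyte-like cells were split into equal groups of low, middle and high maturity by the mean level of 15 villus genes that do not include the members. The other classes were stem-like cells (1214 in rat 1 and 34 in rat 2), goblet/Paneth-like cells (411 and 183), tuft-like cells (11 and 130), enteroendocrine-like cells (EECs, 21 and 11) and CFTR high expresser cells (CHEs, 7 and 77). A class of 7 or 11 cells gives a level of that animal's few cells only. The score was scaled within each rat, so the same group of the 2 rats need not match in maturity. With the score and cutoffs set on both rats together, 1590 enterocytes of rat 1 and 118 of rat 2 fell in the low group. *Alpi* lay at 729 CPM in the least mature of 10 bins of rat 2 against 13.5 CPM in rat 1, and at 3769 against 1917 CPM in the most mature bin. Whether maturity or another difference between the rats lies behind these values was not tested. Intervals below are 95% intervals that cover counting error only, not the difference between animals.

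The start regions of the genes are shown because the receptor among the members acts on DNA. RefSeq tables matched 3 of the 4 members, and the 250 bases before each start site are given 5′ to 3′ on the gene's own strand, in the GRCr8 build, with matches to any of 4 hexamers in capitals. The hexamers searched were AGGTCA, the variant AGTTCA and also the variant GGGTCA and the variant GGTTCA. They are the building blocks of sites for nuclear receptors such as the vitamin D receptor, and both strands were searched. The windows lie at chr4:71489668-71489917 for *Trpv6* (minus strand), at chr7:35622211-35622460 for *Atp2b1* (plus strand) and at chr7:130916758-130917007 for *Vdr* (minus strand).
Trpv6: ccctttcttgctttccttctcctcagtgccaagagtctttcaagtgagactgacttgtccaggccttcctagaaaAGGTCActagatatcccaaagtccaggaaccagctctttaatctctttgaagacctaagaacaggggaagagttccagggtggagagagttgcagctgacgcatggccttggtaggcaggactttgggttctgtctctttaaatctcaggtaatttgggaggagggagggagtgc
Atp2b1: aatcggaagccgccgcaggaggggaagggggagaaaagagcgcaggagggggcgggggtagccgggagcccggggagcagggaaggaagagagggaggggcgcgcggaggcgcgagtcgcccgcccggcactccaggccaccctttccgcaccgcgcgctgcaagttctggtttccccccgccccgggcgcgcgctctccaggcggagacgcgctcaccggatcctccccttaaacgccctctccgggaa
Vdr: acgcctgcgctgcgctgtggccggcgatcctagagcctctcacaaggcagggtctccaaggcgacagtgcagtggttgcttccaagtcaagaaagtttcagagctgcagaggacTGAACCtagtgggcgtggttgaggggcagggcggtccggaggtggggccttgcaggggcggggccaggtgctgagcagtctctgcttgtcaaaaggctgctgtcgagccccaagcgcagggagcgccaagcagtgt
The *Trpv6* window held AGGTCA once, 175 bases before the start, and the *Vdr* window held GGTTCA once on the opposite strand, 136 bases before the start, where it reads TGAACC. The *Atp2b1* window, with 72.8% G and C against 49.2% for *Trpv6* and 63.6% for *Vdr*, held none. Of 33469 such windows in the tables, 39.1% held at least 1 of the hexamers, and 0.0926% held a direct repeat of them with 3 bases between, which none of the 3 windows did. A match is a description of letters and not of binding.

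*Trpv6*, the entry channel, was read almost entirely in rat 2. In rat 1, 9 UMIs came from 2 of 4000 enterocytes, both of high maturity, and the low and middle groups held 0 UMIs, which allows up to 0.160 and 0.165 CPM. In rat 2 the 3 groups from low to high maturity held 24, 143 and 544 UMIs, or 2.29 (interval 1.47 to 3.41), 17.1 (14.4 to 20.2) and 72.9 CPM (66.9 to 79.3). The intervals of the groups did not overlap. In all enterocytes the level was 0.166 CPM in rat 1 and 27.0 CPM in rat 2, a ratio of 162 (85.1 to 357), and it was at least 14.3-fold higher in rat 2 in the low and at least 104-fold higher in the middle group, taking 3 counts per library as the limit for 0. The counting intervals of these ratios reached down to 10.8 and 83.3. Thinned to 5000 UMIs each, 1.07%, 6.15% and 15.5% of the low, middle and high enterocytes of rat 2 held a *Trpv6* UMI, against 0.412% of the erythroid cells of the same library, which should lack the channel and had been removed from the epithelial classes. *Trpv6* was concentrated in few cells even there: 167 of the 1124 enterocytes held a UMI, up to 38 in 1 cell, and the 113 cells with most held 92.4% of the UMIs. These 167 cells held *S100g* at 11838 CPM against 4279 CPM in the others, and *Atp2b1* at 227 against 191 CPM. *Vdr* lay at 347 CPM in them and at 354 CPM in the others. They were also the more mature cells, with *Apoa4*, an apolipoprotein of the villus tip, at 31977 against 15420 CPM. Outside enterocytes, rat 2 gave 10 UMIs in stem-like cells (14.8 CPM), all of them from 1 cell, and 15 in goblet/Paneth-like cells. It gave 4 in tuft-like cells (3.75 CPM), 2 in CHEs (1.93 CPM) from 1 cell and 0 in EECs. The goblet/Paneth-like cells lay at 4.65 CPM (2.60 to 7.67) with a thinned share of 3.28%, against 2.29 CPM and 1.07% in low enterocytes. The 1 CHE also held 933 *Apoa4* and 39 *Alpi* UMIs. Rat 1 gave 1 UMI in goblet/Paneth-like cells and 0 in each other class.

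*S100g*, the cytosolic buffer, differed between the rats in level and in its course along the villus. In rat 1 it lay at 218 (211 to 225), 123 (118 to 129) and 89.4 CPM (85.0 to 94.0) in low, middle and high enterocytes. In rat 2 it lay at 2641 (2610 to 2673), 6851 (6795 to 6908) and 7244 CPM (7183 to 7306). The level was thus lowest in the most mature group of rat 1 and highest in that of rat 2, and the ratio of rat 2 to rat 1 was 12.1 in the low, 55.6 in the middle and 81.0 (77.0 to 85.3) in the high group. Among all enterocytes, 52.5% of cells in rat 1 and 98.8% in rat 2 held a UMI. After thinning the share was 53.8%, 34.1% and 12.8% from low to high maturity in rat 1 and 93.6%, 96.5% and 96.0% in rat 2. The share in erythroid cells, set beside these as a gauge of free RNA, was 3.57% in rat 1 and 43.2% in rat 2. These cells had a median of 5460.5 and 7361 UMIs before thinning. The 28 erythroid cells of rat 1 also held Paneth markers at a sum of 99149 CPM, against 9909 CPM in its goblet/Paneth-like cells. They are thus no clean gauge in rat 1, for any member, and the part of free RNA in the shares was not tested. Along 10 equal bins of the score, rat 1 had 248 CPM in the second and 26.5 CPM in the ninth, whereas rat 2 had 1590 CPM in the first, 8002 CPM in the sixth and 6146 to 8099 CPM in those beyond it.

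The 2 enterocytes of rat 1 with *Trpv6* were also its highest cells for *S100g*. The first held 744 *S100g* UMIs of 14391, with 6 of *Trpv6*, and the second held 101 of 10029, with 3 of *Trpv6*. Both were in the most mature bin, carried 0 UMIs of *Fabp6*, were not called as doublets and had barcodes found in rat 1 alone. They held 55.1% of all *S100g* UMIs of the high-maturity group, which without them lay at 40.2 CPM (37.3 to 43.4), and the most mature bin lay at 32.2 CPM (27.4 to 37.8) in place of 208 CPM. They were the 2 of 4000 enterocytes of rat 1 in which *S100g* made up over 1% of the UMIs, as it did in 171 of 1124 in rat 2. The cells were singled out after their values were seen.

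**Figure D1:**
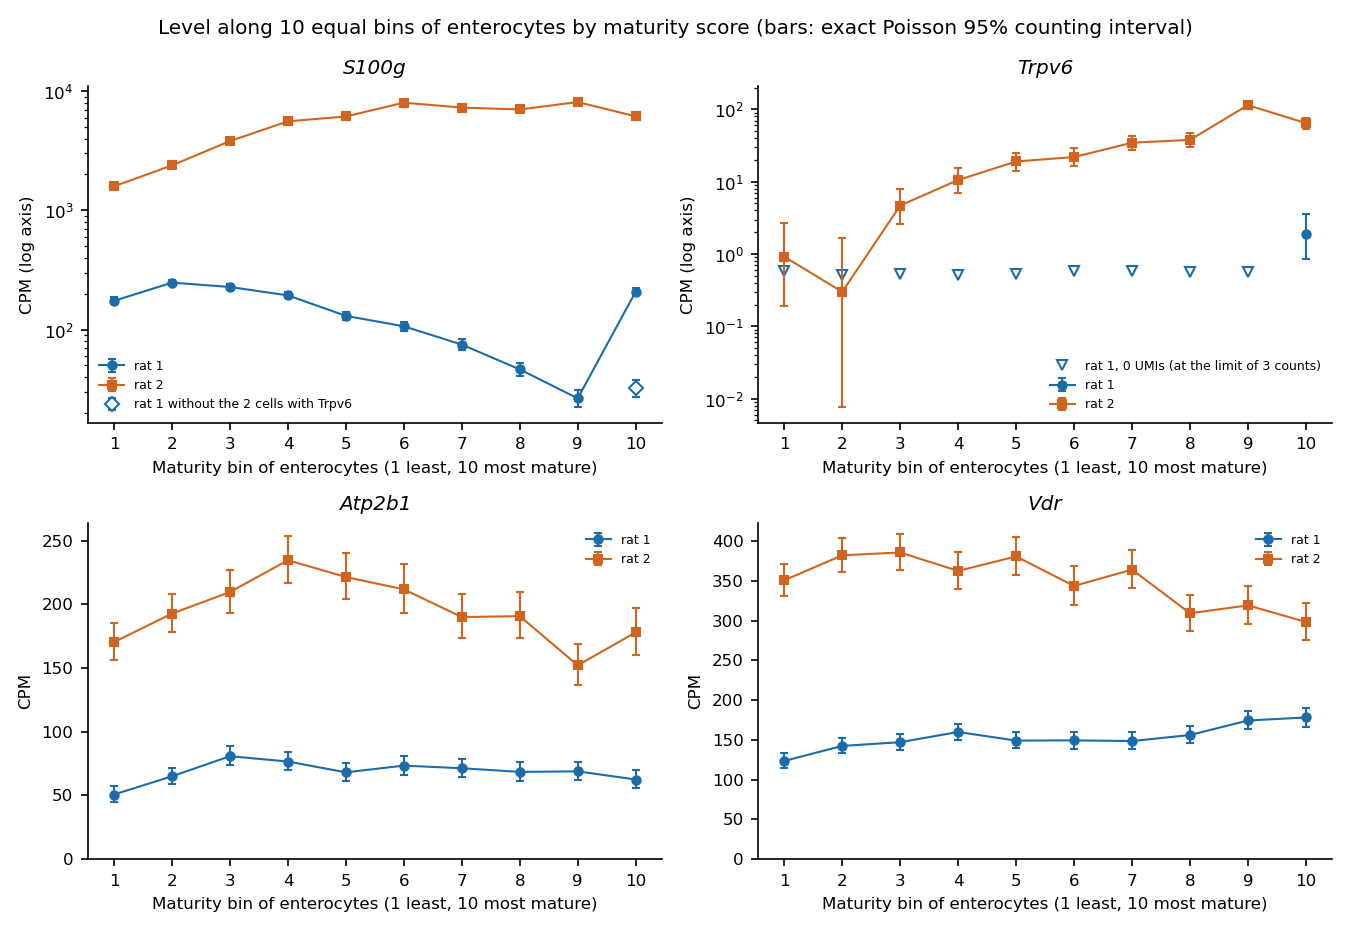
Level of each member in CPM along 10 equal bins of enterocytes ordered by maturity score within each rat, with exact Poisson 95% intervals (log axis for *S100g* and *Trpv6*). *S100g* lay at 26.5 CPM in the ninth bin of rat 1 and at 8099 CPM in that of rat 2, and the open diamond gives the most mature bin of rat 1 without the 2 cells that held *Trpv6*.

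**Figure D2:**
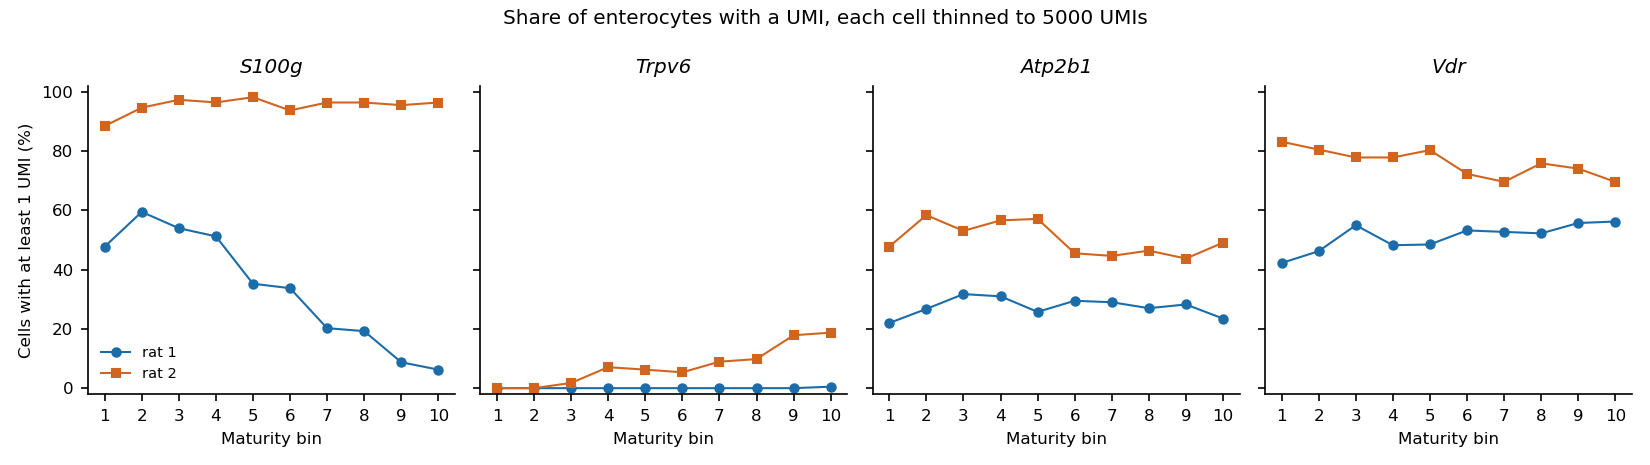
Share of enterocytes with at least 1 UMI of each member after thinning every cell to 5000 UMIs, in percent, over the same 10 bins. The *S100g* share in rat 1 was 59.5% in the second bin and 6.25% in the tenth, and in rat 2 it was between 88.5% and 98.2% in every bin.

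*Atp2b1*, the basolateral pump, varied little in CPM along the villus in either rat. Its level was 66.6, 72.4 and 67.3 CPM from low to high maturity in rat 1 and 192, 219 and 175 CPM in rat 2. All 3 groups of rat 2 lay above those of rat 1, and the ratio over all enterocytes was 2.84 (2.73 to 2.97). By bins it ranged from 50.7 to 80.8 CPM in rat 1 and from 152 to 235 CPM in rat 2. With normalisation factors (TMM, applied in the tests below) the high group lay above the low group by 0.67 in rat 1 and 0.41 in rat 2 on the log2 scale. After thinning, 27.5% of the enterocytes of rat 1 and 50.3% of rat 2 held a UMI, against 0% (up to 10.7% by 3 counts) and 3.70% of the erythroid cells.

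*Vdr*, the receptor, was read in most enterocytes of both rats. It lay at 139, 151 and 168 CPM from low to high maturity in rat 1 and at 372, 367 and 310 CPM in rat 2. In CPM the order along maturity thus differed between the rats. With normalisation factors the high group lay above the low group in both, by 0.93 in rat 1 and 0.28 in rat 2 on the log2 scale. Each group of rat 2 lay above each of rat 1, with a ratio of 2.31 (2.25 to 2.38) over all enterocytes. Thinned shares were 51.1% and 76.2% of enterocytes, against 10.7% and 4.53% of erythroid cells. The stem-like cells carried *Vdr* at 144 and 302 CPM, which was 94.3% (90.2 to 98.4) of the enterocyte level in rat 1 and 85.7% (74.3 to 98.4) in rat 2. This closeness depends on the scaling. Low enterocytes lay above stem-like cells by 0.25 (rat 1) and 1.15 (rat 2) on the log2 scale with normalisation factors, and by -0.04 and 0.30 without.

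**Figure D3:**
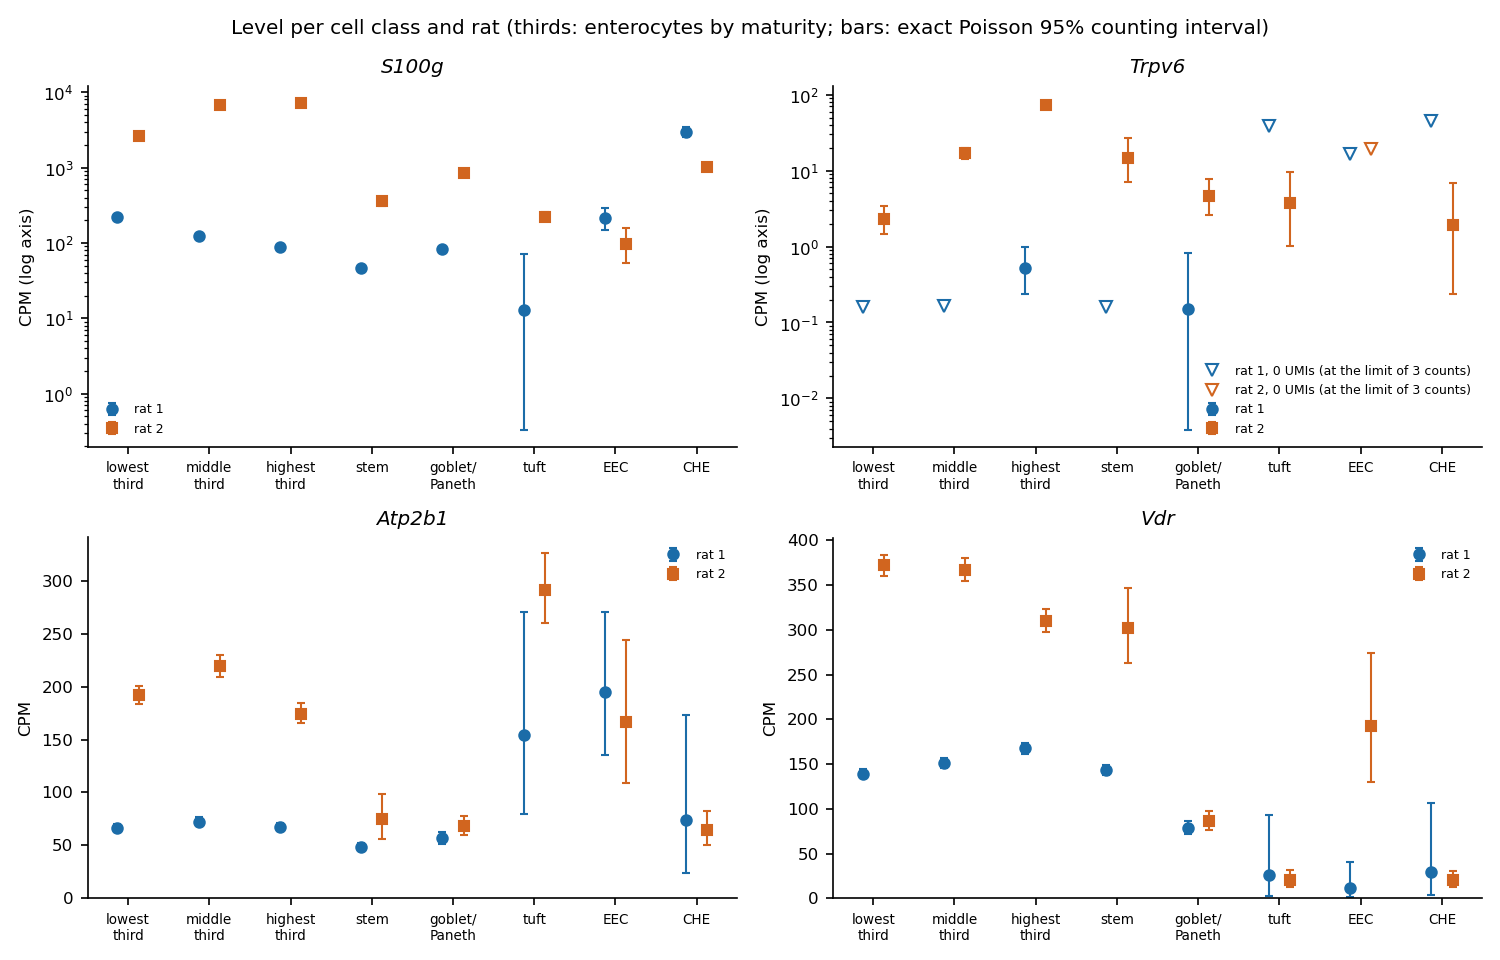
Level of each member in CPM in the 3 maturity groups of enterocytes and 5 other epithelial classes, by rat, with exact Poisson 95% intervals (log axis for *S100g* and *Trpv6*; open triangles mark 0 UMIs, drawn at the limit of 3 counts). *S100g* was higher in rat 2 than in rat 1 in all 3 enterocyte groups, and CHEs held it at 2962 (rat 1) and 1020 CPM (rat 2).

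CHEs also held *S100g*. It lay at 2962 CPM in rat 1 (200 UMIs, in 6 of 7 cells, with 71, 54 and 46 UMIs in the highest 3) and 1020 CPM in rat 2 (1057 UMIs, in 70 of 77 cells, 334 of them in 1 cell). Without the highest cell of each rat the levels were 2142 and 711 CPM. In CHEs of rat 2, *Fabp1*, *Alpi* and *Apoa4* lay at 5.73%, 3.27% and 6.81% of their enterocyte level, *Si* and *Anpep* at 1.22% and 2.01%, and *S100g* at 19.3% (18.1 to 20.5). The first 3 values rest largely on single cells. In rat 2, 1 CHE held 933 of the 1244 *Apoa4* UMIs and 39 of the 74 *Alpi* UMIs, and another held 791 of the 1329 *Fabp1* UMIs. In CHEs of rat 1 *Fabp1*, *Alpi* and *Apoa4* lay at 7.68%, 2.64% and 5.39% and *S100g* at 2037% (1761 to 2344). The part of free RNA in these levels was not tested. The order of the rats was opposite in the classes: CHEs of rat 2 held 0.344 times (0.296 to 0.403) the *S100g* level of CHEs of rat 1, and its enterocytes 36.4 times (35.5 to 37.2) that of the enterocytes. The 7 CHEs of rat 1 include 1 with 80 *Fabp6* UMIs. Goblet/Paneth-like cells of rat 2 held 575 of their 2693 *S100g* UMIs in 1 cell and 82.6% in the 19 cells with most. The *S100g* level of goblet/Paneth-like cells was 82.0 (rat 1) and 835 CPM (rat 2). This was 56.4% of the enterocyte level in rat 1, with *Fabp1* at 11.1% and *Alpi* at 12.3%, and 15.8% in rat 2, with *Fabp1* at 20.1% and *Alpi* at 19.4%. Tuft-like cells of rat 2 held 223 CPM (4.22% of the enterocyte level, with *Alpi* at 4.33%, *Apoa4* at 4.86% and *Fabp1* at 135%), and their thinned share of 40% was no higher than the 43.2% of the erythroid cells. Stem-like cells held 46.1 and 357 CPM, which was 31.7% of the enterocyte level in rat 1, with *Alpi* at 4.51%, and 6.76% in rat 2, with *Alpi* at 5.81%. EECs held 38 UMIs in rat 1, 34 of them in 1 of 21 cells, and 15 in rat 2.

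The pump was also read in tuft-like cells and EECs. *Atp2b1* lay at 292 CPM (260 to 326) in tuft-like cells of rat 2, above the 196 CPM (190 to 201) of its enterocytes, and in rat 1 at 155 CPM (79.9 to 270) in 11 tuft-like cells and 194 CPM (135 to 270) in EECs, above the 68.8 CPM of its enterocytes. EECs of rat 2 held 167 CPM (109 to 244), which did not differ from its enterocytes beyond counting error. These levels are without normalisation factors, by which a level is divided. In rat 2 the factors were 1.33 for tuft-like cells, 1.35 for EECs and 0.837, 0.663 and 0.574 for low, middle and high enterocytes. In rat 1 they were 1.52, 1.02 and 1.02, 0.749 and 0.644. The standing of tuft-like cells in both rats, and of EECs in rat 2, against enterocytes thus depends on the scaling. *Vdr* was low in tuft-like cells (25.8 and 20.6 CPM) and CHEs (29.6 and 20.3 CPM), intermediate in goblet/Paneth-like cells (78.9 and 86.5 CPM), and in EECs it was 11.1 CPM from 2 UMIs in rat 1 and 192 CPM from 30 UMIs in rat 2.

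Enterocytes, as the mean of their 3 groups, were then compared with the mean of the 5 other classes in a model over the 16 sums of UMIs per rat and class (n = 2 rats). With edgeR's quasi-likelihood test, adjusted over 11157 genes, 3 of the 4 members were higher in enterocytes, where 22.9% of all genes were higher and 12.1% lower. *Vdr* was higher by a log2 fold change of 2.78 (SE 0.43, adjusted p = 0.00023). *S100g* was higher by 3.80 (SE 0.99, adjusted p = 0.0085) and *Atp2b1* by 1.11 (SE 0.36, adjusted p = 0.028). *Trpv6* was at 3.49 (SE 2.51, adjusted p = 0.32) and did not pass. With the rat as a replicate block in edgeR, all 4 members passed, where 29.1% of genes were higher, with *Trpv6* at an adjusted p of 2.1e-04. Each rat's own difference on the normalised log2 scale was 2.56 in rat 1 and 3.03 in rat 2 for *Vdr*, 0.72 and 4.59 for *S100g*, 0.22 and 1.61 for *Atp2b1*, and 0.51 and 3.04 for *Trpv6*. The difference of *S100g* and that of *Atp2b1* thus came mostly from rat 2. Without normalisation factors the difference of *S100g* was 0.09 in rat 1 and 3.80 in rat 2. The normalisation also bore on *Atp2b1*: without normalisation factors its difference was -0.40 in rat 1 and 0.82 in rat 2, the edgeR model gave 0.37 at an adjusted p of 0.45 (0.0018 to 0.45 over 14 alternatives), and the median of all genes stood at -0.51 in place of 0.15. Of all genes called, 2551 of 3906 were higher in enterocytes with TMM factors, 1248 of 4095 with library size alone and 1968 of 5375 with DESeq2.

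Maturity was tested as high against low enterocytes. With edgeR 0 of the 4 members passed, as with DESeq2, and 0 had an unadjusted p under 0.05, at a background of 0.475% of genes higher and 0.385% lower (96 genes called, 2518 at an unadjusted p under 0.05). *Trpv6* was at 5.65 on the log2 scale (SE 2.75, adjusted p = 0.24), *S100g* at 1.92 (SE 1.93, adjusted p = 0.59), *Atp2b1* at 0.47 (SE 0.70, adjusted p = 0.73) and *Vdr* at 0.46 (SE 0.79, adjusted p = 0.77). With the rat as a replicate block 1 member passed, *Trpv6* (adjusted p = 6.2e-05), where 3089 genes were called and 12.3% of genes were higher. The rats went opposite ways for *S100g*, at -0.63 in rat 1 and 2.00 in rat 2. Without normalisation factors the values of the rats were 0.01 and -0.14 for *Atp2b1* and 0.27 and -0.26 for *Vdr*, against 0.67 and 0.41 and 0.93 and 0.28 with them, so that the direction in rat 2 turns with the scaling. Of the genes called, 53 of 96 were higher with TMM factors, 75 of 514 with library size alone and 363 of 843 with DESeq2.

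Low enterocytes were compared with stem-like cells to see which members appear as enterocytes form. With edgeR 0 of 4 members passed, as with DESeq2, and 1 (*Atp2b1*) had an unadjusted p under 0.05, where 5.08% of genes were higher and 5.29% lower in low enterocytes (1157 genes called, 2999 at an unadjusted p under 0.05). *S100g* was at 3.63 (SE 2.08, adjusted p = 0.28), with 2.52 in rat 1 and 3.73 in rat 2, and *Atp2b1* was at 1.73 (SE 0.73, adjusted p = 0.14), with 0.74 and 2.19. *Vdr* was at 0.88 (SE 0.79, adjusted p = 0.51). With the rat as a replicate block *Atp2b1* passed (adjusted p = 0.025), where 3455 genes were called and 14.9% of genes were higher. The fitted value of *Trpv6*, -1.13 (SE 3.13), rests on the 1 stem-like cell of rat 2 with 10 UMIs and on 0 UMIs in both classes of rat 1. The 34 stem-like cells of rat 2 limit this comparison. They held leukocyte markers at a sum of 885 CPM, among them *Cd3g* at 333 CPM and *Ccl5* at 347 CPM, against 117 CPM in low enterocytes of that rat, and the sums in rat 1 were 319 and 74.1 CPM. Tuft markers summed to 108 CPM in them against 3.25 CPM in those low enterocytes. The part of these transcripts in the result was not tested. Of the genes called, 567 of 1157 were higher with TMM factors, 254 of 1073 with library size alone and 592 of 1517 with DESeq2.

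The rest of the pathway was read from 6 lists of 53 genes, of which 34 could be tested. In enterocytes against the mean of the 5 other classes, 16 were higher and 5 lower with edgeR, where 22.9% of all genes were higher and 12.1% lower, at a median of 0.96 on the log2 scale, against 0.15 for all genes. With DESeq2 the counts were 14 and 9 (1968 and 3407 of all genes), and with library size alone 12 and 6 (1248 and 2847 of all genes). A gene higher than this mean can lie below 1 of the classes. The lists were chosen with earlier results of these data known. At entry and exit, *Trpm6*, a channel best known for magnesium, was higher by 6.17 (adjusted p = 4.3e-05) and the calmodulin gene *Calm3* by 1.38 (adjusted p = 6.7e-04), while *Slc8b1*, the mitochondrial sodium-calcium exchanger, was lower, at -1.61 (adjusted p = 0.025). The other isoforms and exchangers stood at or near 0. *Slc8a1*, *Slc8a2*, *Slc8a3*, *Atp2b2*, *Atp2b3*, *Calb1*, *Calb2* and *Cacna1c* had 0 UMIs in enterocytes of both rats. *Trpv5*, the renal relative of *Trpv6*, was at 0 in rat 1 and 0.266 CPM in rat 2, and *Atp2b4* at 1.39 and 0.342 CPM.

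All 5 tested trafficking partners of TRPV6 were higher in enterocytes than in the mean of the 5 other classes, and all 5 in low enterocytes than in stem-like cells. Single classes lay above enterocytes: *S100a10* was at 5153 and 4233 CPM and *Anxa2* at 1185 and 1768 CPM in CHEs, and *Pdzk1* was at 301 CPM in EECs of rat 2 against 193 CPM in its enterocytes. *S100a10* and *Anxa2*, whose products form a complex that brings the channel to the membrane, were higher by 1.62 (adjusted p = 5.4e-04) and 1.63 (adjusted p = 5.0e-04), *Rab11a*, which acts in recycling endosomes, by 1.26, the scaffold gene *Slc9a3r1* by 2.21 and *Pdzk1*, a scaffold of the brush border, by 4.36 (adjusted p = 1.9e-05). In the second comparison 5 passed with DESeq2 and 1 with library size alone. Their levels in enterocytes were close in the rats or higher in rat 1, with *S100a10* at 1839 and 1465 CPM and *Anxa2* at 1160 and 793 CPM, unlike those of the channel itself.

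In the list of vitamin D receptor partners and metabolism, *Cyp27a1*, which can hydroxylate vitamin D, was higher in enterocytes by 4.54 (adjusted p = 5.4e-05). *Cubn*, an endocytic receptor, was higher by 5.79 (adjusted p = 2.4e-05). *Cubn* was the 1 gene of the 34 that passed with maturity, at 6.00 (SE 0.92, adjusted p = 0.019), from 7.85 and 5.73 CPM in low to 415 and 167 CPM in high enterocytes. *Cyp24a1*, which breaks down calcitriol and is a known target of the receptor, was at 0 in rat 1 and 0.152 CPM in rat 2. *Cyp27b1*, which makes calcitriol, was at 0.0185 and 0 CPM. Of the receptor's dimer partners, *Rxrb* was at 9.49 and 8.56 CPM, *Rxra* at 1.57 and 1.45 CPM and *Rxrg* at 0 in both rats. Neither *Rxra* nor *Rxrb* passed in enterocytes against the other classes.

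Of 11 genes of calcium handling in the endoplasmic reticulum, 2 were higher (*Itpr2* by 2.76, *Orai1* by 0.66) and 4 lower in enterocytes than in the mean of the 5 other classes, with *Orai2* at -6.07 (adjusted p = 1.8e-06) and *Atp2a3* at -4.70 (adjusted p = 2.0e-05). With DESeq2 the counts were 0 and 6 and with library size alone 0 and 5. *Itpr2* was highest in tuft-like cells, at 245 and 302 CPM against 9.15 and 14.3 CPM in enterocytes, and *Orai1* in CHEs, at 163 and 195 CPM against 91.5 and 59.4 CPM. *Atp2a3*, a reticulum calcium pump, lay at 1005 and 2532 CPM in tuft-like cells, 262 and 383 CPM in goblet/Paneth-like cells and 59.2 and 298 CPM in CHEs. *Orai2* lay at 103 and 135 CPM in tuft-like cells, 104 and 155 CPM in CHEs and 44.4 and 173 CPM in EECs. On the paracellular route, 2 of 3 claudins were higher, *Cldn15* by 2.34 and *Cldn12* by 1.35, while 2 passed with DESeq2 and 1 with library size alone. Among other carriers under vitamin D 3 of 4 were higher (3 with DESeq2 and 2 with library size alone): *Slc34a2*, the intestinal phosphate carrier, was higher by 6.10 (adjusted p = 7.8e-05), *Slc20a1* by 1.74 and *Slc30a10*, which exports manganese, by 6.07 (adjusted p = 1.5e-04). *Slc30a10* was also higher in rat 2, at 124 CPM in enterocytes against 33.8 CPM in rat 1.

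**Figure D4:**
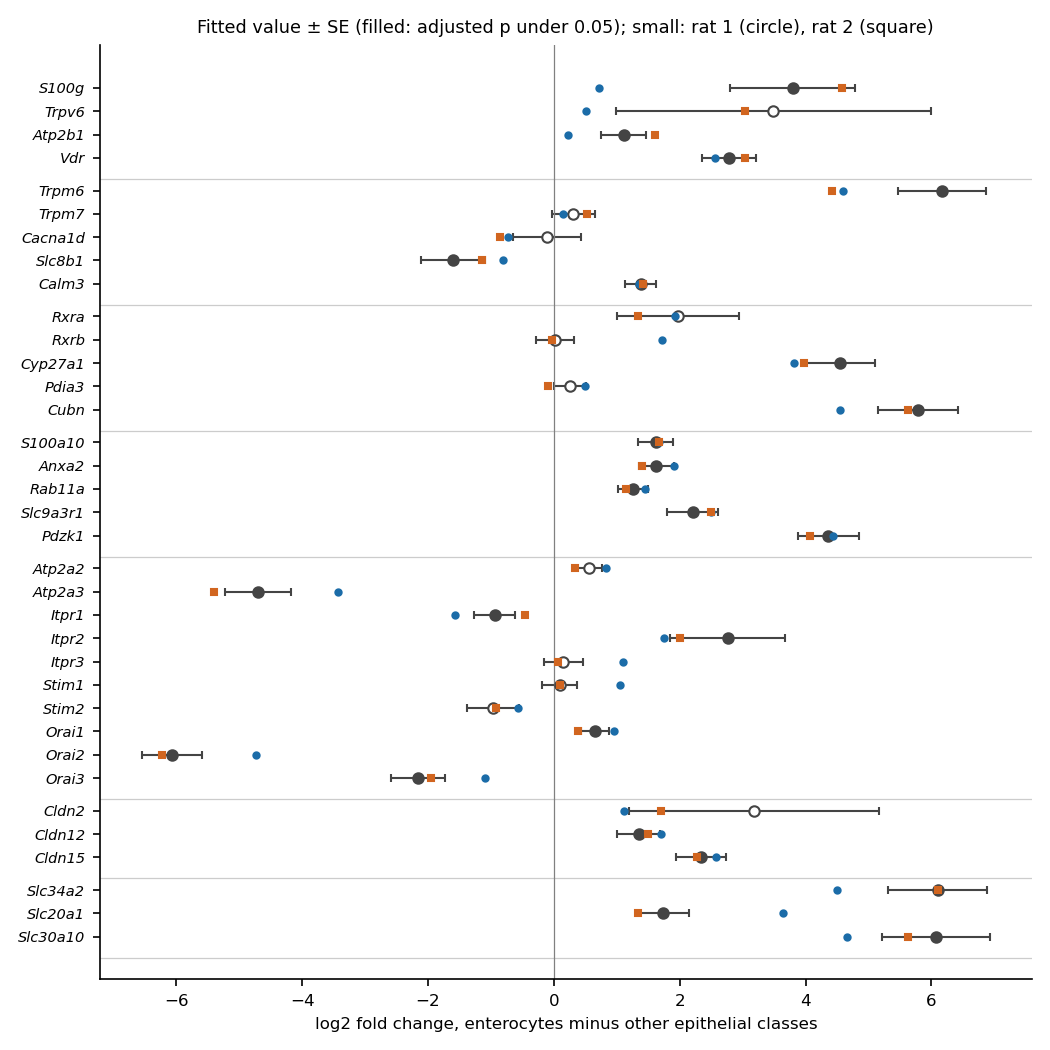
Fitted log2 fold change of enterocytes over the 5 other classes for the 4 members and the tested genes of the 6 lists, with SE (filled where the adjusted p was under 0.05), and each rat's own difference as a small circle (rat 1) or square (rat 2). The 2 rats lie far apart for *S100g*, at 0.72 and 4.59, and close for *Vdr*, at 2.56 and 3.03; 3 genes with an SE over 5 are not drawn.

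The difference between the rats was set against all genes in enterocytes. Of 9904 genes with at least 50 UMIs over both rats, 142 (1.43%) were over 4-fold higher in rat 2, among them 2 of the 4 members. On the log2 scale the median gene lay at -0.27, *Trpv6* at 7.06 (the 4th highest), *S100g* at 5.18 (the 13th), *Atp2b1* at 1.51 (the 257th) and *Vdr* at 1.21 (the 410th). Of 1192 genes with at least 100 CPM on average, 0 had a larger increase in rat 2 than *S100g*. With 1 animal on each side no test of this difference can be made.

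Genes that mark positions along the small intestine moved with this difference. *Onecut2*, a proximal factor, lay at 0.129 (rat 1) and 40.4 CPM (rat 2), and *Slc40a1*, the iron exporter of the proximal gut, at 1.498 and 110 CPM, summed over the 2 genes with that symbol. *Fabp6*, the bile acid binding protein of the distal gut, lay at 1138 and 0.571 CPM. Other genes of the lists differed less: *Gata4* was at 39.0 and 58.7 CPM, *Cybrd1* at 2.85 and 4.07, *Slc10a2* at 1.17 and 0.456, *Slc51a* at 647 and 443 and *Slc51b* at 459 and 341. Within rat 1 *Fabp6* lay at 2920 CPM in the fourth bin of maturity and at 71.7 CPM in the ninth. Position of the sampled tissue, the version of the counting software (3.1.0 for rat 1 and 5.0.1 for rat 2), mitochondrial share and animal cannot be told apart with 1 library per rat.

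**Figure D5:**
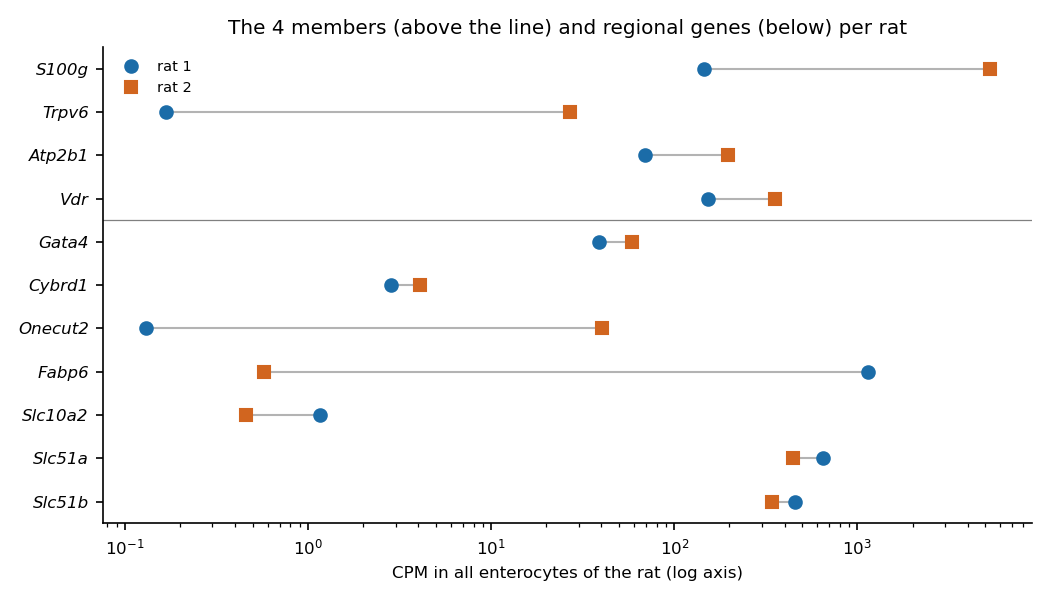
Level in all enterocytes of each rat, in CPM on a log axis, of the 4 members (above the line) and of regional genes with 1 identifier each (below). All 4 members were higher in rat 2, as was *Onecut2*, whereas *Fabp6* was at 1138 (rat 1) and 0.571 CPM (rat 2). The median of 9904 genes lay at -0.27 on the log2 scale (rat 2 over rat 1).

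Likeness to each member was measured across 15 sums per rat (10 enterocyte bins and the 5 other classes) as the lower of the rats' correlations over 11157 genes, a description only, since the sums share a library. Closest to *Vdr* were *Hadh* (0.90), *Bet1* (0.89) and *Fam3c* (0.89). Closest to *S100g* were LOC102556085 (0.79), *Clcn5* (0.70) and *Alas1* (0.70), and closest to *Atp2b1* were *Tent4b* (0.71), *Gclc* (0.67) and *Ifi44l* (0.64). For *Trpv6* these were *Tnfrsf1b* (0.89), *Ecel1* (0.85) and *Ankrd29* (0.82), where the value in rat 1 rests on the 1 enterocyte bin with UMIs. Among the members, *S100g* and *Trpv6* correlated at 0.11 in rat 1 and 0.68 in rat 2, *S100g* and *Vdr* at -0.19 and 0.56, and *Atp2b1* and *Vdr* at -0.79 and 0.34.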

How the data were processed

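The authors deposited a matrix of UMI counts for each rat, with genes as rows and barcodes as columns and no normalization, which the submitters' processing notes give as made with Cell Ranger on the rn6 build. The file headers name versions 3.1.0 for rat 1 and 5.0.1 for rat 2. The totals were 99986348 and 66469907 UMIs. Cells were filtered, integrated by rat and clustered with Seurat 5.3.0 (2000 variable genes, 20 principal components, resolutions of 0.3 and 0.5), with the members and the genes of the pathway and regional lists kept out of the variable genes. Clusters named as leukocytes or erythroid cells by marker levels were removed, as were 1 and 102 cells with at most 10 UMIs of 5 epithelial genes. Unnamed clusters held 28 and 13 cells. Cluster names rest on marker lists, but the levels a name required were set after the clusters and the members' levels in them had been seen, and the naming rule was revised after a first run of the alternatives. Values may depend on these rebuilt names. Doublets were not removed: Scrublet called 116 cells of rat 1 and 2 of rat 2, where the caller did not work.

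Counts were summed per rat and class (16 sums of 67531 to 18881455 UMIs) and fitted in 1 model with edgeR 4.0.16 (TMM factors, its default filter, quasi-likelihood test, Benjamini-Hochberg adjustment, threshold 0.05), with limma 3.58.1 and R 4.3.3. DESeq2 1.42.0 was an alternative. The sums of a rat come from the same animal, so the rat pairs them. The rats' differences correlated at a median of 0.245 over the 28 pairs of classes (0.0772 to 0.778). Because the paper gives no blocked test, the block is an alternative. Each rat's own difference was taken on log2 CPM after adding a prior count of 2, with no test. The maturity score is relative: 490 enterocytes of rat 1 (12.3%) and 181 of rat 2 (16.1%) lay within 0.05 of a cutoff. Levels carry exact Poisson intervals and shares exact Clopper-Pearson intervals. Genes named are the members, genes of the lists past the threshold or high in level, and the nearest 3 genes to each member. *Calm2* has several identifiers, and it and *Nherf4* were not analysed here. The members and all lists were chosen with earlier results of these data known. Alternatives that leave out shared barcodes or the 2 enterocytes of rat 1 with *Trpv6* were chosen after seeing the data.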

Additional observations from a re-analysis of the deposited data

Results flagged for a closer look

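Barcodes outside the limits on cells also held the channel and the buffer, above the limit that 0 counts allow. In rat 1, *S100g* lay at 33.2 CPM in the 5816 barcodes with at most 5000 UMIs and at 49.0 CPM in the 182 barcodes with over 5000 UMIs and over 40% mitochondrial UMIs, and *Trpv6* had 0 UMIs in both sets. In rat 2, *S100g* lay at 1053 CPM in 4439 barcodes and at 1761 CPM in 1510 barcodes of the same kinds, and *Trpv6* at 5.06 CPM (53 UMIs) and 16.4 CPM (269 UMIs).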

How the results depend on the processing

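Among the 14 alternatives for enterocytes against the other classes, *S100g* (2.55 to 4.15 on the log2 scale, adjusted p 1.1e-22 to 0.035) and *Vdr* (2.02 to 2.96) passed in all 14. *Atp2b1* passed in 11 (0.37 to 1.34) and did not without limits on genes per cell, with DESeq2 or with library size only. *Trpv6* passed in 2, the replicate block and no filter on low counts. The count of 3906 genes called there stayed within 1.5 times in each alternative. For maturity, 96 genes passed with edgeR, against 22 without gene limits, 889 at most 20% mitochondrial UMIs, 26 with all variable genes, 28 with called doublets removed, 5 with cells without epithelial transcripts kept, 1469 with cutoffs set on both rats together, 34 with the study's enterocyte markers as the score, 32 without apolipoprotein genes in it, 843 with DESeq2, 514 with library size only, 1355 with no filter and 3089 with the replicate block. *Trpv6* passed in 2 of 17 alternatives there and the other members in 0. *Atp2b1* and *Vdr* turned to -0.097 and -0.099 with library size only. For low enterocytes against stem-like cells, the 1157 genes became 619 at most 20% mitochondrial UMIs, 1873 with no filter and 3455 with the replicate block, and *Trpv6*, at -1.13, turned to 6.32 without gene limits, 6.14 with the rats merged without integration and 5.78 with doublets removed. There *S100g* passed in 1 and *Atp2b1* in 2 of 17 alternatives. The causes were not tested. The replicate block changed no other call of a member than those of *Trpv6* and *Atp2b1* given above. No test is possible without one of the rats, since 1 sum per class is then left.

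All 4 members were higher in rat 2 in all 3 enterocyte groups with TMM factors as without and with cells unthinned as thinned. The share of all genes higher in rat 2 in all 3 groups was not counted. Over all enterocytes, without factors, the median of 9904 genes lay at -0.27 on the log2 scale (rat 2 over rat 1). Of 64 levels, 33 stayed within their interval with TMM factors and 31 moved, and of 64 shares 25 stayed and 39 moved without thinning. Depth limits the classes of 7 to 34 cells, where 1 cell can hold most UMIs of a member.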

Other observations

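The clusters left out of the epithelial classes as leukocytes also held the members. In the 267 cells of rat 1 *S100g* lay at 92.4 CPM, *Vdr* at 150 CPM and *Atp2b1* at 77.9 CPM, and in the 313 cells of rat 2 they lay at 2642, 165 and 140 CPM, with 53 *Trpv6* UMIs in 13 cells. Their enterocyte transcripts were also high, with *Fabp1* at 82.9% and 49.7% and *Alpi* at 92.0% and 47.5% of the enterocyte level in rat 1 and rat 2, and the part of enterocyte RNA in the members' levels was not tested. Leukocyte markers summed to 1745 CPM in these cells of rat 1, against 929 CPM in all its enterocytes and 2007 CPM in its high group. Epithelial markers summed to 9552 CPM there, against 11510 CPM in all its enterocytes, so the markers do not bear out the name in rat 1. In rat 2 the leukocyte and epithelial sums were 7944 and 3670 CPM.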
